A study of Mus musculus with 36 samples.

Results

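The 6 genes described here encode receptors that are normally found on immune cells (Cd22, Siglec1, Csf1r, Il1rl1) or on cells of the gut and pancreas (Sctr, Cckar). They are 6 of the 45232 genes in the deposited tables. They were chosen from earlier results of these same libraries, because their RNA was silent or close to it with an empty vector and high with a FOXA1 construct at day 1 or day 11. The choice also drew on levels in the FOXA1 variants beside wild-type FOXA1 after induction. Levels of the 6 genes after induction are therefore given as a description with no test, apart from variants against WT at day 11 for some of them. All 6 passed the filter on low counts. Cd22, Siglec1, Sctr and Cckar could pass it only through WT and FE255del libraries, in which they are high, whereas Csf1r and Il1rl1 also had enough counts in other libraries.

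CD22 and sialoadhesin, the product of Siglec1, are Siglecs, cell surface lectins that bind sialic acid on glycans. CD22 sits on B cells and dampens signalling from the B cell receptor through phosphatases such as the Ptpn6 product, whereas sialoadhesin marks subsets of macrophages. Csf1r encodes the receptor tyrosine kinase that macrophages need to survive and that binds the cytokines CSF1 and IL-34. Il1rl1 encodes ST2, the receptor for the alarmin IL-33, which signals together with the co-receptor encoded by Il1rap in mast cells and in some lymphoid cells. Sctr and Cckar encode G protein-coupled receptors for the gut hormones secretin and cholecystokinin, which act on the pancreas, bile ducts, stomach and gallbladder. FOXA1 belongs to the forkhead family, acts in prostate epithelium and can bind its sites in closed chromatin.

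The RNA came from organoids grown from primary mouse prostate cells and carrying 1 of 4 doxycycline-inducible constructs, which were the empty vector (EV, labelled empty vehicle), wild-type FOXA1 (WT) and the variants FOXA1 FE255del and FOXA1 R219S. Each construct was sampled at day 0, day 1 and day 11 with 3 replicates, which gave 12 groups and 36 libraries. The labels give 500 ng/mL doxycycline as the inducer of a fusion that also carries DsRED, and only the names of the deposited tables say that day 0 stands for cultures without it. Sorted DsRED-positive cells of each construct were seeded in triplicate and the cultures then handled apart, so the p-values measure the spread between such cultures. All groups share the organoid source, the inducible vector system and the sort.

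The libraries held 61476938 to 102385337 counts, and mitochondrial genes took 1.32% to 4.37% of them. Foxa1 counts gave 221.8 to 231.7 scaled CPM (counts relative to library size after scaling) in the 3 EV libraries of day 1, against 410.2 to 419.4 in WT, 290.6 to 343.8 in FE255del and 302.7 to 311.9 in R219S. The epithelial markers Epcam, Cdh1, Krt8 and Krt18 summed to between 2103 and 3721 CPM in every library, and Pbsn, which marks secretory prostate luminal cells, had no count in any of them. Folds compare pooled levels, the summed counts of a group over its summed scaled library sizes, with n = 3 per group. They can differ slightly from ratios of the mean CPM values. Where a compared group had no count it was set to 3 counts over its 3 libraries and the fold is written as at least that size. Where it had 1 to 3 counts the fold has a 95% exact interval. Intervals and bounds treat each count as independent and leave out the spread between cultures. Most low counts are even numbers, so both reads of a pair appear to be counted. If so, the intervals are too narrow, the limits for groups without a count too low and the folds written as at least a size too large.

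Gene bounds are given for mm10 from GENCODE M21. Cd22 is on the minus strand of chromosome 7 (chr7:30865402-30880342), Siglec1 on the minus strand of chromosome 2 (chr2:131069220-131086765) and Cckar on the minus strand of chromosome 5 (chr5:53697776-53707705). Il1rl1 (chr1:40429570-40465415) and Sctr (chr1:120006894-120063536) are both on the plus strand of chromosome 1, far apart. RefSeq start sites were matched for Cd22 and Il1rl1. Siglec1, Csf1r, Sctr and Cckar are only named.

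Il1rl1 is the member that separated FE255del from WT most at day 1, and it has 2 annotated starts. The bases upstream of each are shown because the gene counts cannot tell which start was used. Each stretch runs from 250 to 11 bases before the start (RefSeq, GRCm38.p6, plus strand, chr1:40429320-40429559 and chr1:40439379-40439618). Capitals mark the forkhead words TGTTTAC or TATTTAC on either strand, and no matches overlap.
Il1rl1 first start: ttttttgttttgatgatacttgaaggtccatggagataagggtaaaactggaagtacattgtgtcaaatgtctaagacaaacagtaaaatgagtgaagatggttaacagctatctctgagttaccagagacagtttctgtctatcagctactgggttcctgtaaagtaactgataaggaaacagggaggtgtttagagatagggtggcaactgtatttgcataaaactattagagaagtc
Il1rl1 second start: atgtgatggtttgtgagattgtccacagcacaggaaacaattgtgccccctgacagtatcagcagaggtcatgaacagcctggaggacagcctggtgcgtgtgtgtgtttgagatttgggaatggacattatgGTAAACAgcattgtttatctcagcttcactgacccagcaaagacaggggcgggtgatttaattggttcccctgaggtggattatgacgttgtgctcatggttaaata
The second stretch held 1 word, TGTTTAC on the opposite strand, which begins 117 bases before the start in the printed direction. Neither word was in the first. Of 32851 RefSeq windows of the same 240 bases, 5.59% held at least 1 of the words. A match is a description of letters and not a measured binding site, and no binding was measured here.

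Before induction the receptors were silent or nearly so with every construct. At day 0 Cd22 had no count in any EV, WT or FE255del library. In R219S it had 0, 0 and 16 counts, so all of it came from replicate 3. Siglec1 had at most 5 counts in any day 0 library, Sctr at most 2 and Cckar at most 2. Csf1r was low but present, with 21, 19 and 10 counts in EV, 23, 23 and 18 in WT, 4, 6 and 6 in FE255del and 20, 11 and 14 in R219S. Il1rl1 had 10, 12 and 0 counts in EV and between 0 and 10 in the other groups of that day.

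Day 0 did not enter the choice of the genes, so each construct was tested against EV there across all 18176 filtered genes with edgeR's quasi-likelihood test. None of the 6 genes passed for WT, where 22.7% of all genes did, and none for R219S, where 20.1% did. Cd22, Siglec1, Sctr and Cckar had few or no counts at day 0 and passed the filter only through WT and FE255del libraries. They had little room to be called, so day 0 counts out of 6 cannot be weighed against the shares of all genes. At an unadjusted p under 0.05 the WT comparison had 1, Il1rl1, with a log2 difference of -2.13 ± 0.94 (SE, adjusted p = 0.106, n = 3 per group). Without EV day 0 replicate 3, the library with no Il1rl1 count, the difference was -2.68 and passed (adjusted p = 0.018). In R219S, Cd22 passed by DESeq2 (4.89, adjusted p = 0.0474) and not by edgeR (5.44 ± 3.06, adjusted p = 0.250), and its only counts are the 16 of replicate 3. For FE255del, where 20.8% of all genes passed, 1 of the 6 did: Csf1r was lower than in EV by -1.73 ± 0.59 (adjusted p = 0.0357). This call was lost without the filter on low counts (adjusted p = 0.0862) and without EV replicate 1 or 2 or any 1 of the FE255del replicates (adjusted p from 0.0863 to 0.128).

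**Figure D1:**
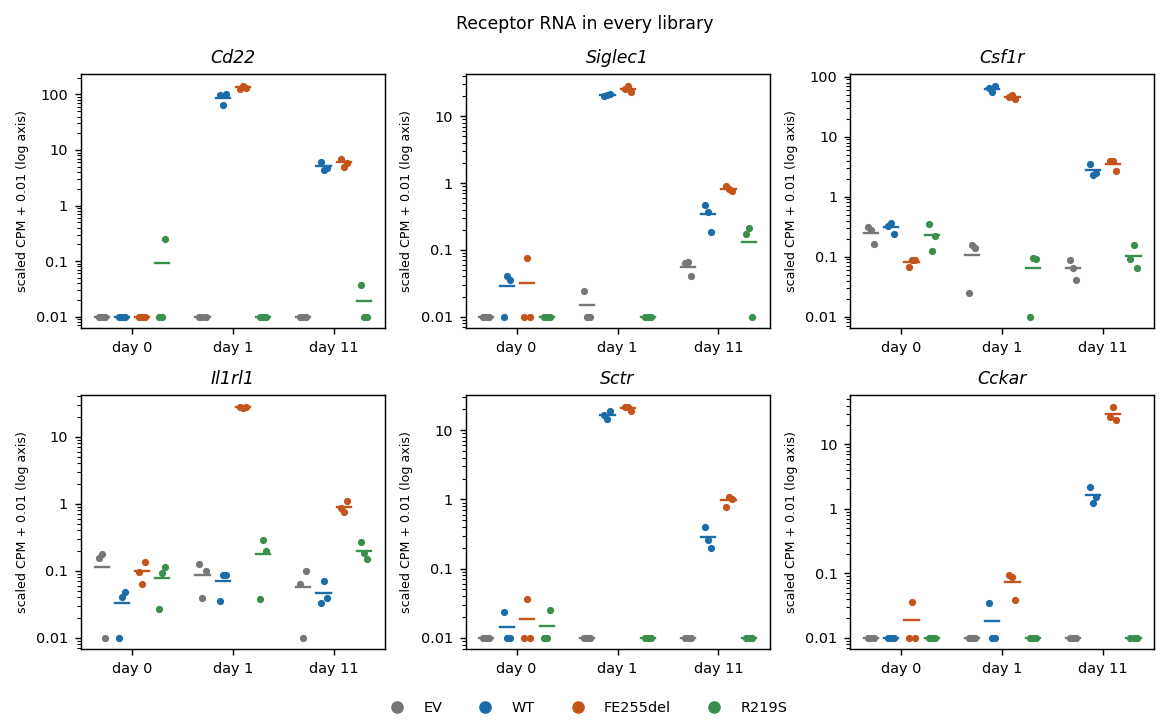
Scaled CPM plus 0.01 on a log axis for each of the 6 receptors, with 1 point per library, a bar at the group mean and the 4 constructs in colour at days 0, 1 and 11. WT and FE255del stand far above EV and R219S at day 1 for Cd22, Siglec1, Csf1r and Sctr, FE255del alone does so for Il1rl1, and Cckar is high only at day 11.

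Cd22, the B cell lectin, had the highest level per kilobase of exon of the 6 at day 1. It had 7784, 5019 and 8048 counts in the WT libraries and 8727, 10951 and 9176 in FE255del, against 0 in all 3 EV libraries and 0 in all 3 R219S libraries. Both expressing groups were far from the silent ones, and FE255del (133.5 ± 10.5 CPM, SD) did not overlap WT (87.6 ± 19.9 CPM), in which replicate 2 was the low library. Under the rule of 3 counts, no count in the 3 EV libraries of day 1 allows up to 0.0147 CPM. Against EV the Cd22 level was at least 5994-fold higher with WT and at least 9123-fold higher with FE255del.

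At day 11 Cd22 was lower but still well above EV. The WT libraries had 528, 292 and 331 counts and the FE255del libraries 549, 371 and 418, while EV had none and R219S had 2, 0 and 0. WT (5.05 ± 0.89 CPM) and FE255del (5.94 ± 1.01 CPM) overlapped. From day 1 to day 11 the pooled level was 17.1 times lower in WT and 22.4 times lower in FE255del. The 2 counts over R219S gave a ratio to WT of 0.00180 (95% exact interval 0.000217 to 0.0065).

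Siglec1, the macrophage lectin, was also on in WT and FE255del only. At day 1 it had 1641, 1642 and 1720 counts in WT and 1815, 2192 and 1619 in FE255del. The EV libraries had 1, 0 and 0 and the R219S libraries none. FE255del (26.0 ± 2.72 CPM) stood above WT (21.1 ± 0.61 CPM) without overlap, and the ratio of WT to EV was 4315 with a 95% exact interval of 774.1 to 170458. By day 11 WT had 40, 24 and 12 counts, FE255del 71, 59 and 53, EV 4, 4 and 2 and R219S 12, 14 and 0. The pooled day 1 level was 62.1 times that of day 11 in WT and 32.0 times in FE255del, and at day 11 WT overlapped R219S.

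Csf1r was the only receptor of the 6 with a higher mean in WT than in FE255del at day 1. It had 5166, 4282 and 5665 counts in WT and 3273, 3792 and 2906 in FE255del, against 1, 10 and 9 in EV and 0, 6 and 6 in R219S. WT (63.6 ± 7.98 CPM) and FE255del (46.1 ± 3.92 CPM) did not overlap, and their pooled levels were 651.7 and 472.9 times that of EV. At day 11 WT had 307, 152 and 174 counts, FE255del 312, 289 and 188, EV 6, 4 and 2 and R219S 6, 10 and 4. WT and FE255del then overlapped, both above every EV and R219S library, and their pooled day 1 levels were 22.5 and 13.1 times those of day 11. Csf1r lies on the plus strand of chromosome 18 (chr18:61100598-61132149). The mouse annotation also holds a Csf1r pseudogene, and how reads shared with it were assigned is not given in the sources used here.

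Il1rl1, the IL-33 receptor, was high in FE255del only. At day 1 FE255del had 1979, 2014 and 1918 counts, while EV had 8, 2 and 6, WT 2, 6 and 6 and R219S 2, 20 and 14. The 3 FE255del libraries lay within 26.5 to 27.9 CPM, and no other library of that day exceeded 0.282 CPM. The pooled FE255del level was 350.4 times that of EV and 464.4 times that of WT. At day 11 FE255del had 66, 56 and 78 counts, R219S 19, 12 and 10, EV 4, 0 and 6 and WT 2, 4 and 2. FE255del was 30.7 times lower than at day 1, and it lay above every library of the other constructs.

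Sctr, the secretin receptor, had no count in any of the 9 EV libraries. At day 1 WT had 1309, 1139 and 1482 counts and FE255del 1510, 1650 and 1294, with none in R219S. FE255del (20.6 ± 1.61 CPM) lay just above WT (16.5 ± 1.97 CPM), and the lowest FE255del library (18.8 CPM) exceeded the highest WT library (18.6 CPM) only narrowly. Sctr was at least 1130-fold higher in WT than in EV and at least 1408-fold higher in FE255del. At day 11 WT had 34, 17 and 13 counts and FE255del 61, 80 and 72, again with none in EV or R219S. The pooled day 1 level was 57.9 times that of day 11 in WT and 21.7 times in FE255del.

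Cckar, the receptor for cholecystokinin, followed another time course. It had no count in the 9 EV and 9 R219S libraries. At day 1 there were only 2, 0 and 0 counts in WT and 6, 6 and 2 in FE255del. At day 11 WT had 190, 83 and 104 counts and FE255del 2094, 2843 and 1716. FE255del (29.6 ± 7.62 CPM) did not overlap WT (1.64 ± 0.49 CPM), and its pooled level was 17.6 times that of WT. The pooled level in FE255del was 457.1 times its day 1 value, and the ratio in WT was 199.8 with a 95% exact interval of 54.9 to 1656.

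Levels of different genes were compared per kilobase of annotated exon. In FE255del at day 1 Cd22 had 26.5 CPM per kb, Sctr 10.2, Csf1r 7.98, Il1rl1 3.98 and Siglec1 3.64. In WT the order was Cd22 at 17.4 CPM per kb, Csf1r at 11.0, Sctr at 8.22 and Siglec1 at 2.95. Cckar in FE255del at day 11 had 8.05 CPM per kb, close to Csf1r of day 1 on this scale and the highest of the 6 on its day. Across the 12 group means of log2(CPM + 0.05) the Pearson r between Cd22, Siglec1, Csf1r and Sctr ran from 0.955 to 0.987. For Il1rl1 with those 4 it ran from 0.543 to 0.631, and for Cckar with the other 5 from 0.253 to 0.448. These r values describe 12 points that share libraries, and the genes were chosen for being low in EV, which fixes part of the pattern.

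The variants were tested against WT at day 11 for Siglec1, Csf1r, Il1rl1 and Sctr. Their day 11 levels beside EV, and their day 1 levels in the variants beside WT, were known when the genes were chosen. These tests are therefore not independent of the choice, and counts out of 4 cannot be weighed against the shares of all genes. Siglec1 and Sctr could also pass the filter on low counts only through WT and FE255del libraries. Cd22 and Cckar were left out because their day 11 values helped to choose them. In FE255del, where 17.7% of all genes passed, 3 of the 4 were higher. Il1rl1 was higher by a log2 value of 4.58 ± 0.57 (adjusted p = 3.2e-07), Sctr by 1.74 ± 0.25 (adjusted p = 1.4e-05) and Siglec1 by 1.27 ± 0.35 (adjusted p = 0.012). All 3 FE255del libraries exceeded all 3 WT libraries for each of these. The Siglec1 call was lost without WT day 11 replicate 3, its lowest library (0.98, adjusted p = 0.0603). Csf1r did not pass (0.33 ± 0.19, adjusted p = 0.274).

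For R219S against WT at day 11 Csf1r and Il1rl1 passed, in a comparison where 48.9% of all genes did. Siglec1 and Sctr passed too. They entered the test only through WT and FE255del libraries, so their lower values in R219S carry little beyond that choice. Csf1r was lower by -4.89 ± 0.35 (adjusted p = 6.8e-13) and Sctr, with no count in R219S, was at least 20.6-fold lower. Siglec1 was lower by -1.47 ± 0.50 (adjusted p = 0.0169), although the groups overlapped. That call was lost with only the compared groups in the fit (adjusted p = 0.136), without WT replicate 1 (adjusted p = 0.124) and without R219S replicate 3, the library with no Siglec1 count (-0.89, adjusted p = 0.0685). Il1rl1 moved the other way and was higher in R219S than in WT by 2.35 ± 0.75 (adjusted p = 0.0095). This call was lost without WT replicate 1 (adjusted p = 0.0522) or R219S replicate 1 (adjusted p = 0.0505), and it rests on 41 counts against 8.

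Bulk RNA cannot separate more cells of a type from more RNA per cell, so markers of the cells that normally carry these receptors were read in the same libraries. Of 18 macrophage markers, C1qa, C1qb, C1qc, Csf3r and Tyrobp had no count in any of the 36 libraries, and 15 stayed under 1 CPM in every group. The other 3 were Aif1, Cd68 and Mrc1. The summed macrophage list was lower where Csf1r and Siglec1 were highest: 2.73 to 4.16 CPM in WT and 3.39 to 4.64 in FE255del at day 1, against 7.85 to 8.74 in EV. Ptprc, the pan-leukocyte marker CD45, had 2, 2 and 2 counts in EV at day 1, 2, 0 and 4 in WT and 5, 10 and 24 in FE255del. Other members of the list were higher with a construct. Cx3cr1 had 15, 29 and 18 counts in WT at day 1 and none in EV, FE255del or R219S. Laptm5 had 12, 11 and 24 counts in WT, 8, 10 and 5 in FE255del and 4, 4 and 4 in R219S, against none in EV. Itgam had 18, 8 and 29 counts in WT and 30, 8 and 12 in FE255del, against 2, 2 and 2 in EV. The macrophage markers thus did not move one way, and their part in the Csf1r and Siglec1 values was not tested.

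All 11 B cell markers stayed under 1 CPM in every group. Ms4a1 had no count in any day 1 library, and the summed list held 0.904 to 1.63 CPM in WT, 0.652 to 0.847 in FE255del and 0.905 to 1.16 in EV. The 11 markers of mast cells and lymphoid cells, which carry Il1rl1, also stayed under 1 CPM in every group. Cpa3, Fcer1a, Mcpt4, Tpsb2 and Ms4a2 among them had no count in any library, those with high Il1rl1 included.

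Markers of tissues that carry the hormone receptors were mixed. The pancreatic acinar genes Cpa1 and Cpb1 had no count, and the gastric genes Pgc, Gkn2 and Atp4b had none. Tff2, a gastric mucous peptide, had 1207, 1680 and 1349 counts in FE255del at day 1 and 1400, 1662 and 1217 at day 11, against at most 34 in any other library. The summed gastric list was thus 17.3 to 22.9 CPM in FE255del after induction, almost all of it Tff2, while Sctr and Cckar in WT stood beside at most 0.576 CPM. Endothelial Pecam1, also found on leukocytes, had 346, 357 and 326 counts in WT and 458, 511 and 430 in FE255del at day 1, against 39, 45 and 33 in EV, and Emcn had none. Basal markers Krt5, Krt14 and Trp63 ranged from 1085 to 10325 CPM in sum and were lowest in FE255del and WT at day 1. The part of these shifts in the receptor values was not tested.

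**Figure D2:**
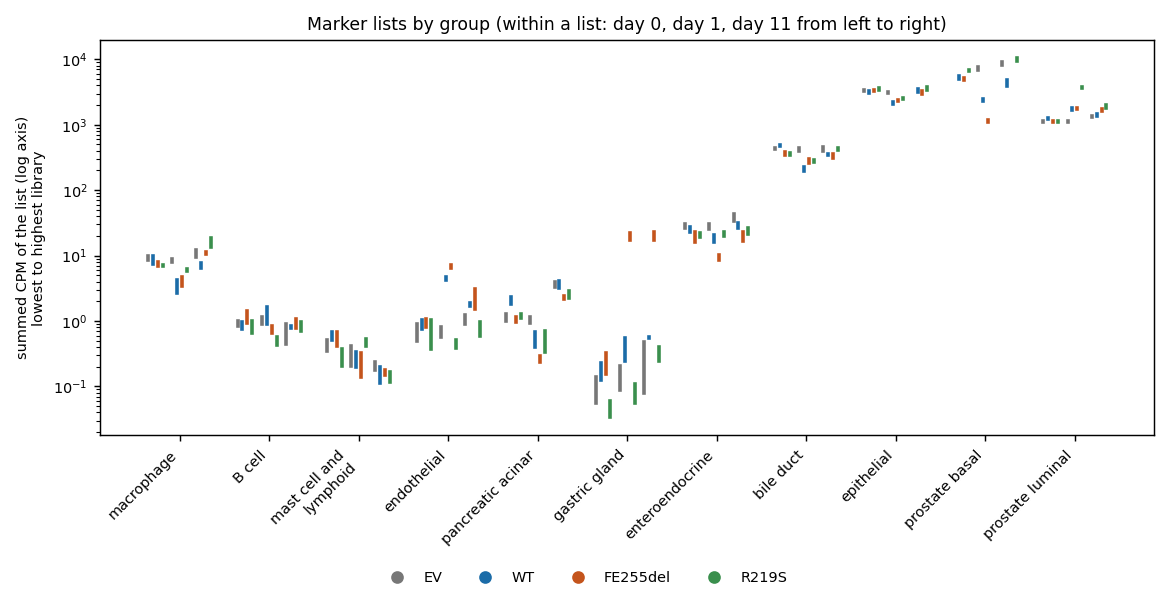
Summed CPM of 11 marker lists on a log axis, with a line from the lowest to the highest of the 3 libraries of each group, constructs in colour and days 0, 1 and 11 from left to right within a list. The B cell, mast cell and lymphoid lists stay under 2 CPM in every library, and the macrophage list is lowest in WT at day 1, at 2.73 CPM.

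Ligands, relatives and signalling partners were read from 7 lists with 105 genes, of which 71 were tested. Against EV at day 1, 25 rose and 34 fell in WT (60.5% of all genes passed), 26 rose and 29 fell in FE255del (53.2% of all genes) and 17 rose and 26 fell in R219S (48.5% of all genes). The median log2 difference of the 71 was -0.08, -0.05 and -0.02, beside -0.01, -0.03 and -0.04 over all genes. At day 11 the counts were 20 and 30 in WT (40.6% of all genes), 22 and 25 in FE255del (42.2%) and 22 and 17 in R219S (32.1%). At day 0 they were 18 and 22 in WT (22.7% of all genes), 16 and 10 in FE255del (20.8%) and 10 and 7 in R219S (20.1%). The R219S counts turned to 7 and 10 with total-count scaling. The 3 constructs share the EV libraries on each day. Against WT at day 1, 29 partners were higher and 18 lower in FE255del (41.7% of all genes passed) and 31 were higher and 28 lower in R219S (59.6% of all genes). Total-count scaling moved the median of all genes by 0.12 in WT against EV at day 1 and by less elsewhere.

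Most of the Siglec list was silent in these organoids. Of 7 relatives, only Mag and Siglece passed the filter, and Siglech had no count in any library. Mag, a myelin Siglec that lies beside Cd22, had 357, 227 and 357 counts in WT at day 1 and 14, 19 and 21 in FE255del, against none in EV. At day 11 it had 134, 75 and 93 counts in WT and 17, 16 and 12 in FE255del. By these counts Mag was higher in WT than in FE255del on both days, while Cd22 had the opposite order at day 1. FE255del minus WT was -3.97 ± 0.34 for Mag at day 1 (adjusted p = 3.9e-10), in a comparison where 41.7% of all genes passed. Mag could enter that test only through groups in which it is on, so the p-value adds little to the counts.

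Enzymes that make the sialic acid ligands of Siglecs moved in both directions. Of 14 tested genes at day 1, 6 rose and 6 fell in WT (60.5% of all genes passed), and 5 rose and 7 fell in FE255del (53.2% of all genes). St6gal1, the sialyltransferase that makes the linkage preferred by CD22, had 49.9, 57 and 55 CPM in EV, 8.62, 9.63 and 7.77 in WT and 17.6, 16.4 and 18 in FE255del. It fell by 2.64 on the log2 scale in WT (SE 0.12, adjusted p = 5.3e-18) and by 1.64 in FE255del (SE 0.11, adjusted p = 1.5e-13), with no overlap between any pair of these groups. St3gal1 was also lower, with -3.21 ± 0.11 in WT and -2.44 ± 0.11 in FE255del. Gne, which starts sialic acid synthesis, rose by 0.77 ± 0.05 in WT and 0.55 ± 0.05 in FE255del.

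Cmah makes N-glycolylneuraminic acid, the form that mouse CD22 prefers. Its CPM was 0.901, 0.831 and 0.730 in EV at day 1, 0.149, 0.207 and 0.101 in WT and 0.0565, 0.132 and 0.029 in FE255del. It fell by 2.42 (SE 0.32, adjusted p = 3.5e-08) in WT and by 3.44 (SE 0.36, adjusted p = 4.8e-10) in FE255del. At day 11 it was higher than in EV, by 0.75 ± 0.25 (adjusted p = 0.0129) in WT and 0.83 ± 0.24 (adjusted p = 0.0055) in FE255del. The day 11 difference minus the day 1 difference was 3.17 ± 0.40 in WT (44.5% of all genes passed) and 4.28 ± 0.44 in FE255del (34.6% of all genes). The day 11 call in WT was lost without EV replicate 3 (adjusted p = 0.090) or WT replicate 3 (adjusted p = 0.122), and that in FE255del without FE255del replicate 1 (adjusted p = 0.0691).

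Of 8 genes that act with CD22 at the B cell receptor, 6 were tested and all 6 passed in WT and FE255del at day 1, 3 in each direction, beside 60.5% and 53.2% of all genes. Lyn, the kinase that phosphorylates CD22, rose by 0.95 ± 0.05 in WT and 0.15 ± 0.05 in FE255del. Ptpn6, the phosphatase that CD22 recruits, fell by 0.38 (SE 0.05) in WT and 0.23 (SE 0.05) in FE255del. Plcg2 rose by 1.13 ± 0.06 and 0.56 ± 0.06. Inpp5d, a lipid phosphatase of blood cells, fell by 2.23 (SE 0.30) in WT and 1.48 (SE 0.29) in FE255del. Btk and Vav1, which B cells use, did not pass the filter on low counts.

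The ligands of the CSF1 receptor fell where the receptor RNA was highest. Csf1 had 58.2, 57.2 and 57.5 CPM in EV at day 1, 20.6, 20.9 and 19.1 in WT and 29.9, 31.1 and 32.5 in FE255del. It fell by 1.51 (SE 0.06, adjusted p = 1.1e-20) in WT and by 0.89 (SE 0.06, adjusted p = 1.7e-14) in FE255del, and R219S did not pass (-0.12 ± 0.06, adjusted p = 0.10). WT was already lower at day 0 (-0.36 ± 0.06, adjusted p = 2.2e-05). At day 11 the differences from EV were -0.45 ± 0.06 in WT, -0.38 ± 0.06 in FE255del and 0.68 ± 0.06 in R219S, each past the test.

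Il34, the second ligand, fell by 2.12 in WT at day 1 (SE 0.32, adjusted p = 5.0e-07), where WT was also lower at day 0 (-1.31 ± 0.30, adjusted p = 9.6e-04). In FE255del the difference of -0.76 ± 0.29 (adjusted p = 0.0242) was lost with total-count scaling (adjusted p = 0.0539), without the filter on low counts (adjusted p = 0.0538) and without any of 4 of the 6 compared libraries, EV replicates 1 and 3 and FE255del replicates 2 and 3 (adjusted p from 0.0547 to 0.102). At day 11 R219S had 2.65, 2.21 and 3.13 CPM against 0.159, 0.139 and 0.0603 in EV, a rise of 4.44 ± 0.33 (adjusted p = 3.7e-13). R219S thus held more RNA for both ligands at day 11, with 20 Csf1r counts in its 3 libraries. Among the other receptors of the list, Csf2rb had no count in EV and 44, 26 and 41 in FE255del at day 1, at least 35.1-fold higher, and Csf3r had no count in any library. Csf2ra, the partner of Csf2rb, rose by 1.94 ± 0.25 in WT, 1.48 ± 0.25 in FE255del and 0.98 ± 0.26 in R219S.

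IL-33 and its co-receptor fell while Il1rl1 was on. Il33 had 373, 395 and 369 CPM in EV at day 1, 58.0, 67.8 and 58.7 in WT, 47.9, 50 and 50.3 in FE255del and 239, 213 and 224 in R219S. The log2 difference was -2.62 ± 0.06 (adjusted p = 4.8e-27) in WT, -2.94 ± 0.06 (adjusted p = 6.2e-28) in FE255del and -0.75 ± 0.06 (adjusted p = 6.3e-13) in R219S. Il1rl1 itself stayed low in WT and R219S at that time. At day 11 FE255del remained lower (-0.84 ± 0.06, adjusted p = 7.2e-14). The small WT difference of that day (-0.17 ± 0.06, adjusted p = 0.0208) was lost with total-count scaling, with only the compared groups in the fit and without EV replicate 2 or 3 or WT replicate 1 or 3 (adjusted p from 0.0521 to 0.174). Il1rap fell by 0.30 (SE 0.09) in WT, 0.88 (SE 0.09) in FE255del and 0.98 (SE 0.09) in R219S at day 1. By day 11 it was lower by -1.76 ± 0.09 in WT and -1.74 ± 0.09 in FE255del.

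Il1r2, the decoy receptor for IL-1 in the same gene cluster, rose with Il1rl1 in FE255del and also in WT. Its CPM at day 1 was 0.916, 0.668 and 0.919 in EV, 4.36, 4.99 and 4.69 in WT, 14.3, 15.5 and 14.5 in FE255del and 0.748, 0.747 and 0.517 in R219S. It rose by 2.48 ± 0.17 (adjusted p = 5.3e-15) in WT and 4.14 ± 0.17 (adjusted p = 5.9e-21) in FE255del, and at day 11 by 2.06 ± 0.16 and 4.61 ± 0.16. Unlike the Il1rl1 level, the Il1r2 level in FE255del was higher at day 11 (31.8 ± 3.59 CPM) than at day 1 (14.8 ± 0.64 CPM). Il1a, an IL-1 ligand, fell by 4.28 (SE 0.24) in WT and 2.20 (SE 0.20) in FE255del at day 1, and the IL-1 antagonist Il1rn was lower too (-1.73 ± 0.09 and -1.57 ± 0.09).

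Secretin itself was not detected with Sctr. Sct, which encodes secretin, Vip and Adcyap1 had no count in any of the 36 libraries. Gcg had 6 counts over all libraries and Gip 2. Relatives of Sctr did change. Adcyap1r1, the receptor for the neuropeptide PACAP, had 12.3, 10.8 and 12.8 CPM in WT and 19.0, 18 and 20.4 in FE255del at day 1, against 0.0581, 0 and 0.0292 in EV. At day 11 it had 4.22, 3.73 and 3.39 CPM in WT and 20.3, 19.4 and 18.3 in FE255del. The FE255del level thus held from day 1 to day 11, where Sctr in the same libraries was 21.7 times lower.

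Glp2r, the receptor for glucagon-like peptide 2, was closer to Sctr in time course. It had no count in the 9 EV libraries, 152, 116 and 146 in WT and 175, 160 and 142 in FE255del at day 1, then 6, 4 and 2 and 6, 12 and 0 at day 11. It was at least 119.0-fold higher in WT and at least 150.8-fold higher in FE255del at day 1. Glp1r had 25, 38 and 26 counts in FE255del at day 1 against 0, 0 and 2 in EV. Vipr1, a receptor for vasoactive intestinal peptide, fell in all 3 constructs at day 1, by 1.70 (SE 0.06) in WT, 0.85 (SE 0.06) in FE255del and 1.24 (SE 0.06) in R219S. Ramp3, a partner of receptors in this family, rose at day 1 by 5.52 ± 0.33 in WT, 6.60 ± 0.32 in FE255del and 2.67 ± 0.41 in R219S. At day 11 it was highest in R219S (39.7, 38.4 and 33.0 CPM), in which Sctr had no count.

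The ligands of the cholecystokinin receptor were at or near 0. Cck had 2 counts in 1 WT library of day 11 and none elsewhere, Gast had 2 counts in 1 EV library of day 0, and the related receptor Cckbr had none. Of the enzymes that act below the receptor, Plcb4 rose at both days in every construct, by 4.91 ± 0.20 in WT, 3.56 ± 0.20 in FE255del and 3.30 ± 0.21 in R219S at day 1. It was higher than in EV before induction too, by 3.58 ± 0.19 in WT, 2.88 ± 0.19 in FE255del and 0.88 ± 0.22 in R219S. Gnaq rose by 0.68 ± 0.05, 0.39 ± 0.05 and 0.55 ± 0.05 at day 1. Plcb3 fell in every construct at day 1, and Plcb1 fell in WT. Of the 6 tested genes of this list at day 1, 2 rose and 3 fell in WT (60.5% of all genes passed). In FE255del 2 rose and 1 fell (53.2% of all genes). In R219S 3 rose, Ghsr among them, and 2 fell (48.5% of all genes). Ghsr, the ghrelin receptor, had 20, 21 and 29 counts in R219S at day 1 and none in any EV, WT or FE255del library. Relative to EV it was at least 22.2-fold higher. Ghsr could enter the test only through R219S, so its edgeR call there adds little to the counts. DESeq2 did not call it (log2 difference 6.94, adjusted p = 0.216).

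**Figure D3:**
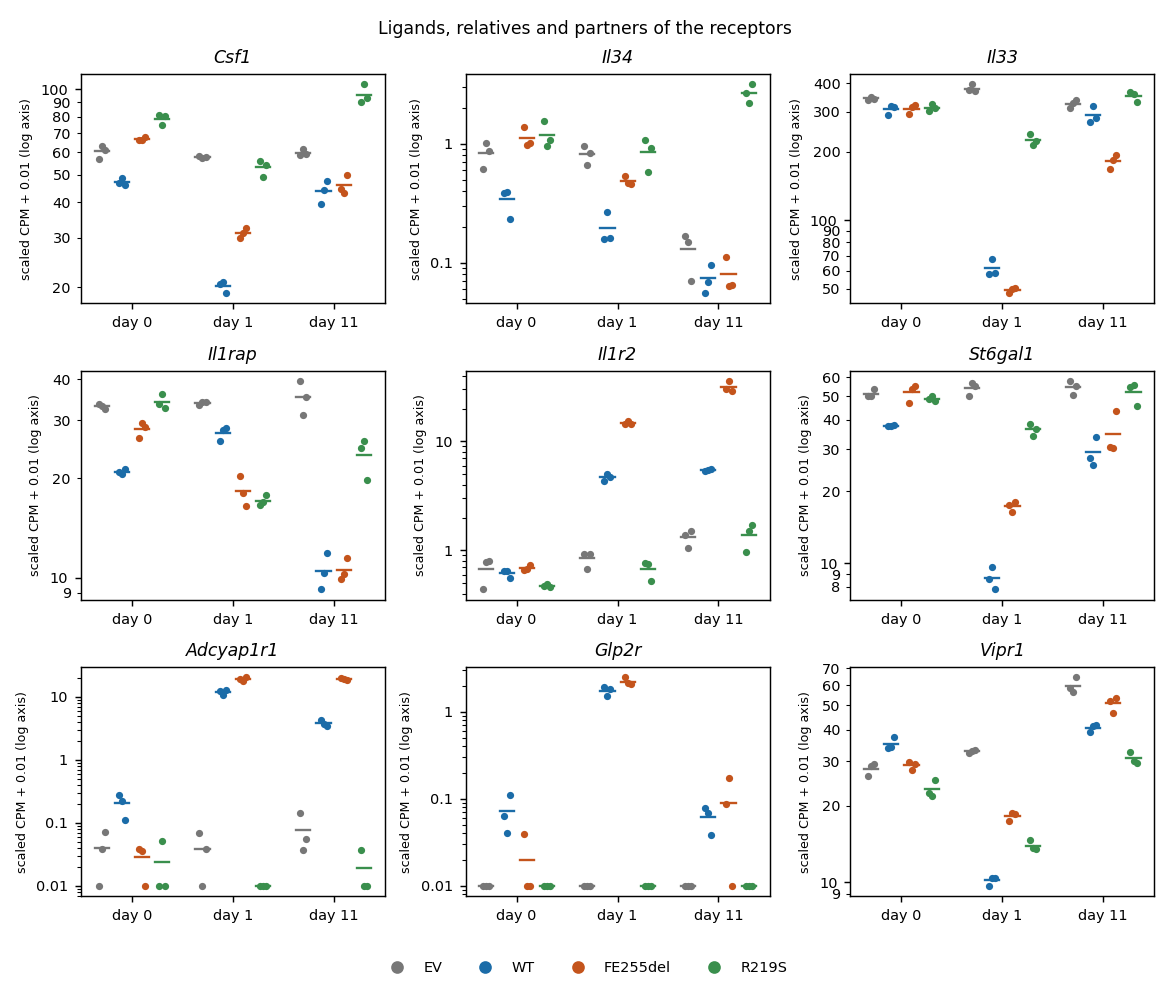
Scaled CPM plus 0.01 on a log axis for 9 ligands, relatives and partners, with 1 point per library and a bar at the group mean. Csf1, Il33 and St6gal1 fall in WT and FE255del at day 1, Il1r2 and Adcyap1r1 stay high in FE255del at day 11, and Il34 is high in R219S at day 11.

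The 3 nearest annotated genes on each side of each receptor were read at day 1 to see whether whole regions moved. Of these 36 neighbours, 27 were tested, and 15 rose and 7 fell in WT, 16 rose and 6 fell in FE255del and 6 rose and 11 fell in R219S, beside 60.5%, 53.2% and 48.5% of all genes called. The median difference of the 27 was 0.40, 0.37 and -0.05. Around Cd22 all 4 tested neighbours were higher in WT and FE255del. At day 1 Ffar1, Mag and Hamp2 were silent in EV and Ffar2 was close to it. All 4 could enter the test only through groups in which they are on, so these calls add little to the counts. They are among the 15 and 16 that rose.

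Ffar1, a receptor for fatty acids 3.93 kb from Cd22, had 250, 78 and 215 counts in WT and 221, 315 and 276 in FE255del at day 1. It had none in any EV or R219S library. As for Cd22, WT replicate 2 was the low library. Hamp2, a hepcidin gene 42.0 kb away on the other side, had 284, 222 and 242 counts in WT and 11, 18 and 16 in FE255del. At day 11 it had 738, 453 and 727 in WT and 54, 65 and 56 in FE255del, above its day 1 counts, where Cd22 was below. Hamp2 has a close relative in the mouse genome, so its reads may be shared. Its R219S difference at day 1 rests on 6 counts and was lost without any 1 of the EV libraries or R219S replicate 1 (adjusted p from 0.0525 to 0.118).

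Ffar2, a receptor for short-chain fatty acids 41.6 kb from Cd22, had 84, 98 and 82 counts in WT, 12, 30 and 22 in FE255del and 0, 2 and 2 in EV at day 1. Between Ffar2 and Cd22, Ffar3 had no count in any library. D7Ertd128e, the nearest gene on the other side, had 1 count in all 36. The stretch around Cd22 thus held genes that were on with both constructs, genes on mainly with WT and genes that stayed off.

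Near Sctr, Tmem37 rose with 179, 118 and 200 counts in WT and 830, 1033 and 795 in FE255del, against 5, 2 and 8 in EV (4.80 ± 0.40 and 7.36 ± 0.39). It had 44, 70 and 58 counts in FE255del before induction. Cfap221, which overlaps the start of Sctr, had at most 5 counts in any library. Near Siglec1, Adam33 rose with 177, 45 and 129 counts in WT and 53, 126 and 69 in FE255del, against 4, 6 and 4 in EV. In the Il1rl1 cluster Slc9a4 moved in opposite directions, with -2.28 ± 0.21 in WT, 1.54 ± 0.18 in FE255del and -2.47 ± 0.21 in R219S. Il18r1, whose start is 0.137 kb from the end of Il1rl1, rose by 0.54 ± 0.15 in WT and 0.79 ± 0.15 in FE255del. Next to Csf1r, Pdgfrb and Cdx1 did not pass the filter. Around Cckar, itself near 0 at day 1, 2 of the 6 neighbours rose and 2 fell in WT (60.5% of all genes passed). In FE255del 3 fell and none rose (53.2% of all genes). The largest difference was that of Pcdh7, 4008 kb away, with -1.86 ± 0.11 in both WT and FE255del.

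**Figure D4:**
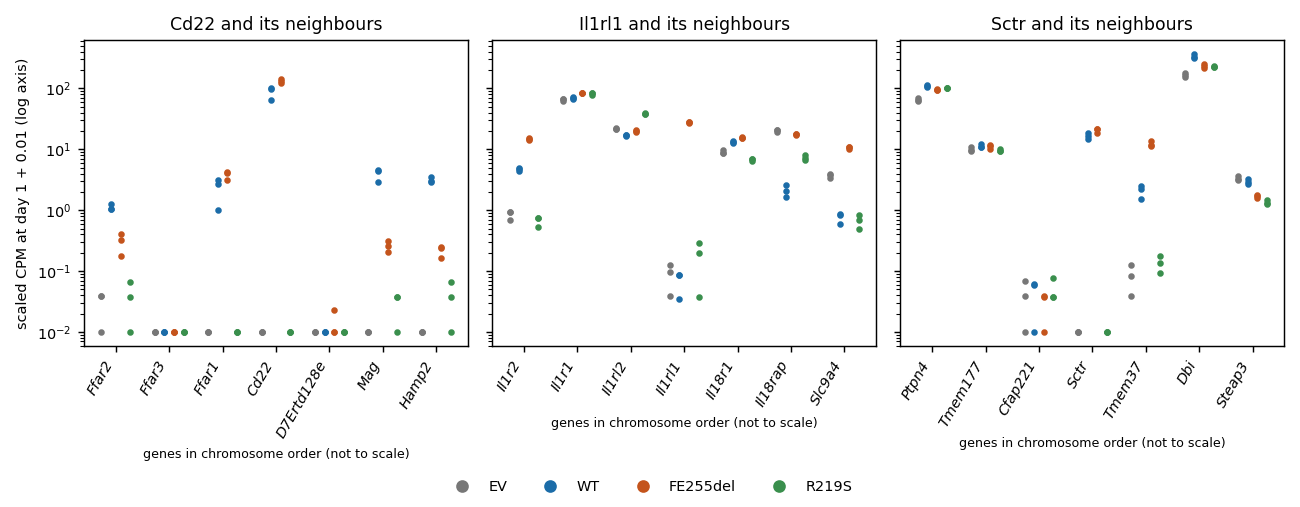
Scaled CPM plus 0.01 at day 1 on a log axis for Cd22, Il1rl1 and Sctr and the 3 genes on each side in chromosome order, with 1 point per library and constructs in colour. Cd22 and Ffar1 are on in both WT and FE255del, Mag and Hamp2 are higher in WT, and Il1rl1 is high in FE255del only.

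Genes with the most similar pattern were ranked by Pearson r over the 12 group means of log2 CPM, among 3455 genes whose means span enough range. For Cd22 the 5 nearest included Kcne2 (r = 0.993), Nfasc (0.991), Mpped1 (0.990) and Krt77 (0.990). Kcne2, a potassium channel subunit, reached 263.4 CPM in WT and 119.7 in FE255del at day 1. For Siglec1 they were Hsd17b2, Muc3a, Sctr, Cds1 and Parvg (0.990 to 0.986), and for Csf1r they included Gadl1, Cacna2d4, Capn9 and Slc2a10 (0.989 to 0.981). For Sctr they were Parvg (0.998), Mpped1, Ffar1, Fbln7 and Capn9 (0.992), so the Cd22 neighbour Ffar1 was closer to Sctr than to Cd22.

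For Il1rl1 the nearest were Jph3 (0.966), Clnk, Ptprm, Meig1 and Gsdma3 (0.939), each low outside FE255del, and Jph3 had 1.82 CPM there at day 1. For Cckar they were Kcnj11 (0.972), Gkn3, Iyd, F13a1 and Col25a1 (0.949). Of these F13a1, a coagulation factor subunit, had 4.12 CPM in FE255del and 0.817 in WT at day 11. The r values describe the same libraries and carry no test.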

How the data were processed

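Expected counts per gene were deposited, 1 table per library, and per the labels they come from polyadenylated RNA and a stranded kit. The submitters' processing notes name STAR 2.4.2a, featureCounts 1.4.3 and mm10, with no roles. The annotation release and strand setting are not given in the sources used here, so antisense reads cannot be told apart. Values were rounded (none lay farther than 3e-09 from a whole number), and 44585 of 45232 identifiers matched a symbol. edgeR 4.0.16 in R 4.3.3 filtered genes with filterByExpr, which kept 18176, scaled by TMM, fitted 12 group means to all 36 libraries and tested contrasts by the two-sided quasi-likelihood F test with Benjamini-Hochberg adjustment over all genes at 0.05. The SE is the log2 difference over the square root of F and can be too small near 0 counts. The procedure was tested on simulated counts.

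The members and the gene lists were chosen with earlier results of these data known. Named partners are fixed ligands and co-receptors plus up to 4 genes of each list with the smallest p against EV at days 1 and 11, of which the text gives a part. Neighbours that passed and the 5 nearest patterns per member complete the rule, of which some items are not reported here, and Tff2, Pecam1, Csf2rb, Csf2ra, Glp2r, Siglece, Siglech, Btk, Vav1, Cckbr, Csf3r, Ffar3, Cfap221, Pdgfrb, Cdx1 and D7Ertd128e were named after their values were seen. Alternatives were RLE and total-count scaling, no filter, a filter of 1 CPM, only the compared groups, the replicate number as a block, each replicate left out, and DESeq2 1.42.0. Day differences were added after the data were seen.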

Additional observations from a re-analysis of the deposited data

Results flagged for a closer look

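For 17 effects of a construct on a partner gene, the difference from EV had opposite signs at day 1 and day 11, both past the test, and the difference between the days passed as well (edgeR, adjusted over all genes). The share of all genes with a day difference was 44.5% in WT, 34.6% in FE255del and 29.4% in R219S. Among genes linked to Siglec ligands, the effect at day 11 minus that at day 1 was 3.17 ± 0.40 for Cmah in WT and 4.28 ± 0.44 in FE255del, 0.99 ± 0.14 for St3gal1 and 0.75 ± 0.11 for St3gal2 in R219S, and -0.47 ± 0.08 for Neu1 and -1.13 ± 0.14 for Neu3 in WT. Among genes that act with CD22 it was -2.76 ± 0.28 for Syk in FE255del and, for Plcg2, -1.30 ± 0.08 in WT and -0.77 ± 0.08 in FE255del. Among cytokines it was 6.40 ± 0.39 for Csf2 in R219S and 2.02 ± 0.17 for Csf3 in WT. In the IL-1 family it was 3.35 ± 0.22 for Il18r1 and 3.54 ± 0.24 for Il18rap in R219S, and for Irak4 -0.63 ± 0.07 in WT and -0.86 ± 0.07 in FE255del. Among partners of secretin family receptors it was 1.34 ± 0.15 for Ramp1 and -6.81 ± 0.50 for Ramp3, both in WT.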

How the results depend on the processing

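Counts of genes called stayed within 1.5 times the reported ones under the other settings, with these exceptions. For the 6 receptors in FE255del against EV at day 0 the count went from 1 to 0 without the filter on low counts, and in R219S against EV at day 0 from 0 to 1 with DESeq2. For the 71 partners in FE255del against WT at day 11 the count went from 31 to 18 with only the compared groups, a fit with fewer samples. With 1 replicate left out, the receptor counts ran from 0 to 1 in WT against EV and from 0 to 1 in FE255del against EV at day 0, and from 2 to 3 in FE255del and 2 to 4 in R219S against WT at day 11. No result reversed. Levels of the receptors moved by at most 7.58% with other scalings. Same-numbered libraries did not deviate together, so the numbers were not taken as pairs. With the replicate block, receptor calls stayed at 0, 1 and 0 at day 0 and 3 and 4 at day 11, and no library set correlated best with its own number. The block changed named calls only for Il33 at day 0 in WT (-0.16, adjusted p = 0.0296) and FE255del (-0.15, adjusted p = 0.0429) and for Tbc1d19 in FE255del at day 1 (0.15, adjusted p = 0.0378). Counts of a few reads limit Il1rl1, Siglec1 and Sctr in EV and R219S.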
